A study of Mus musculus with 24 samples.

Results

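Atf3 and 7 related genes of the ATF/CREB family, namely Jdp2, Atf2, Atf7, Creb5, Creb1, Crem and Atf1, were followed in mouse hearts through ischemia and reperfusion. The 8 genes were taken by name from the 46078 genes counted, after the Ensembl identifiers of the files had been paired with mouse symbols. All 8 were found, and all 8 passed the filter on low counts that left 15128 genes for testing. RNA came from heart tissue of C57BL/6 mice, an inbred strain. There were 8 groups of 3 libraries: sham surgery, 45 min of ischemia with no reperfusion, and the same ischemia with 0.5, 1, 1.5, 3, 6 or 12 h of reperfusion after it. The labels name no transgene or drug and give no age. Whether replicate libraries stem from different mice is not labelled, so a p-value here measures only the spread between these samples, which may be technical. The series title ties ATF3 to FANCD2 and cardiac ferroptosis.

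Proteins of this family carry a basic region that contacts DNA and a leucine zipper that holds a pair of proteins together, and they bind the cAMP response element (CRE) or the related AP-1 site as homodimers or heterodimers. ATF3 is kept low in resting cells and is induced as an early gene by many stresses, the heart included, and JDP2 is its nearest relative and a repressor of AP-1. ATF2, ATF7 and CREB5 form a subfamily of which ATF2 and ATF7 are switched on by the stress kinases JNK and p38, whereas CREB1, CREM and ATF1 are mostly present before a stimulus and are switched on by phosphorylation, by protein kinase A among others. Activity set by phosphorylation is not visible in messenger RNA, which is what was measured here.

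Stretches upstream of a RefSeq transcription start are shown for 4 of the genes. The genes were chosen because they were later called higher in at least 1 group and their promoter windows held words of the CRE family. The stretches come from RefSeq on GRCm38.p6 and run 5′ to 3′ on the gene's strand. They stop before that start, or where more than 30 bases would fall in an annotated untranslated region. Capitals mark 3 motifs, each searched on both strands: the full CRE (TGACGTCA), the short CRE (TGACG or CGTCA, both contained in the full CRE) and the C/EBP-ATF type site (TGATGNAA or TTNCATCA). The intervals are chr1:191183334-191183463 on the minus strand for Atf3, chr12:85599286-85599415 on the plus strand for the window at the second of 3 starts of Jdp2, chr15:100227729-100227848 on the plus strand for Atf1, and chr6:53287173-53287299 on the plus strand for the window at the first of 2 starts of Creb5.
Atf3: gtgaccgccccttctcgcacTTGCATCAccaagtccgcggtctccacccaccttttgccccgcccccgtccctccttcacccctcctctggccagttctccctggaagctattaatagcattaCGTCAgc
Jdp2: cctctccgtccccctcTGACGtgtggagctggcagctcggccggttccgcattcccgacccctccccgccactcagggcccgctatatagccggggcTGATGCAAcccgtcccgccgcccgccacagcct
Atf1: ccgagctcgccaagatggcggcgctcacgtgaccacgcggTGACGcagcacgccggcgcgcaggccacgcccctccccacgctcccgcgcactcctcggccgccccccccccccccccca
Creb5: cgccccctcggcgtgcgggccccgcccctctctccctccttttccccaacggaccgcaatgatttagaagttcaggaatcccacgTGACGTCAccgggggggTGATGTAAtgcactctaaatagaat

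The Atf3 window lies at a start inside the annotated gene, which reaches further upstream to chr1:191218039. The bases at that outer end were not searched. Counted from the start of its own window, Atf3 held a short CRE at -7 and a C/EBP-ATF type site at -110. The Jdp2 window held a short CRE at -114 and a C/EBP-ATF type site at -33. Atf1 held a short CRE at -90. Creb5 held a full CRE at -45, inside which both short CRE words lie, and a C/EBP-ATF type site at -28. The window at the other start of Creb5 held a C/EBP-ATF type site at -84 and an AP-1 site (TGACTCA or TGAGTCA) at -45. Windows of the same 300 bases were available for 7 of the 8 genes, and those of Atf2, Atf7 and Creb1 and the other 2 of Jdp2 held none of the 4 motifs. Over all 32841 RefSeq windows, 1.79% held a full CRE, 20.8% a short CRE, 5.20% an AP-1 site and 3.97% a C/EBP-ATF type site, so the short CRE is a common word. A match is a description of the letters, not a measured binding site.

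Between 13407465 and 17181458 uniquely mapped reads per library were counted in genes. Of these, 39.2% to 54.5% were marked as duplicates and 19.0% to 33.2% came from the mitochondrial genome. A count of 3 reads, taken as the floor of detection, stood for 0.175 to 0.224 CPM, the count scaled to library size. Each of the 8 genes was above that floor in every library, with the lowest value being 37 reads of Creb5 and the highest 10765 reads of Atf3. Because reads carried no molecular identifiers, the floor covers counting error only. Of the ventricular muscle markers, 12 of 12 were detected in every group, with a summed level of 67535 to 70806 CPM in sham, while the 5 atrial markers summed to 7.99 to 25.3 CPM there, Sln and Bmp10 being at 0 reads. The atrial sum was above the sham range in the other groups, up to 67.6 to 146 CPM at 6 h, except at 1.5 h. There it overlapped sham (24.8 to 31.7 CPM). Of the 5 atrial markers, 2 passed the filter, and whether atrial tissue contributed was not tested. The mitochondrial share also differed between groups, from 28.9% to 33.2% in sham to 19.0% to 21.3% at 6 h. With the mitochondrial genes left out before scaling, the calls of the 8 genes numbered 18 against sham, 10 between neighbouring times and 7 across the groups, as with them.

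How many of the 8 genes moved was counted against sham, with a gene called at an adjusted p under 0.05 (edgeR's quasi-likelihood test, Benjamini-Hochberg adjustment over the 15128 genes tested in each comparison). After ischemia alone, 1 of 8 was called higher, Atf3, and 0 lower, against 0.0925% and 0% of all genes tested. At 0.5 h, Atf3 was higher and Atf2 lower, against 7.43% of all genes called higher and 4.48% called lower. At 1 h, 2 were higher (Atf3 and Jdp2) and 2 lower (Atf7 and Creb1), against 7.46% and 3.41%. At 1.5 h, the same 2 were higher and 0 lower, against 4.55% and 2.99%. At 3 h, 3 were higher (Atf3, Jdp2 and Creb5) and 2 lower (Atf7 and Creb1), which is the most calls of any comparison with sham, against 18.4% and 16.9% of all genes. At 6 h, Atf3 and Atf1 were higher and 0 lower, against 24.6% and 22.9%. At 12 h, Atf1 was higher and Creb5 lower, against 16.9% and 14.9%. All 7 comparisons share the 3 sham libraries.

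**Figure D1:**
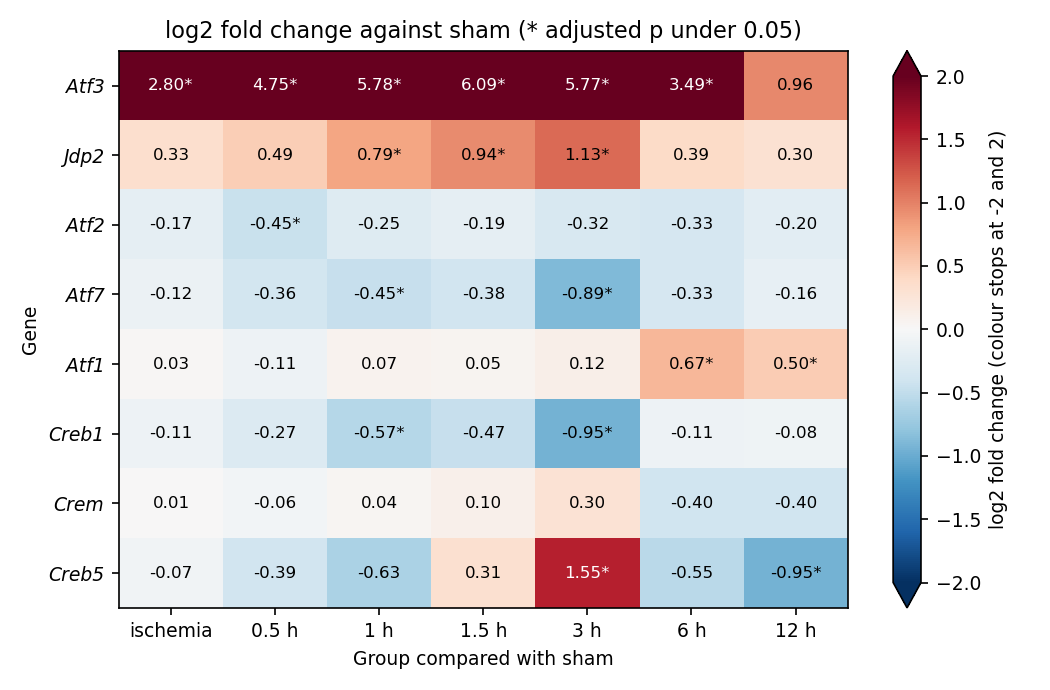
log2 fold change of each gene (rows) in each group against sham (columns), from the edgeR fit, with an asterisk where the adjusted p was under 0.05 and colour limited to the range from -2 to 2. Atf3 changed by 2.80 to 6.09 in its 6 called comparisons, whereas the changes of the other 7 genes lay between -0.95 and 1.55.

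Between neighbouring times the calls were few until 3 h. From ischemia to 0.5 h, 0 of 8 genes were called, against 0.0331% of all genes higher and 0% lower. From 0.5 to 1 h, 0 of 8 and also 0% of all genes were called in either direction by edgeR, although 1004 genes had an unadjusted p under 0.05, and limma-voom and DESeq2 also called 0 genes. From 1 to 1.5 h, 0 of 8 were called, against 0.0529% and 0.0132%. From 1.5 to 3 h, Creb5 was higher and Atf7 lower, against 5.36% and 3.17%. From 3 to 6 h, 7 of 8 were called, with Atf7, Atf1 and Creb1 higher and Atf3, Jdp2, Crem and Creb5 lower, against 14.7% and 13.2% of all genes. From 6 to 12 h, 0 were higher and 1 was lower, Atf3, against 6.49% and 6.69%. Across the 8 groups, 7 of 8 genes were called, Atf2 being the exception, against 64.3% of all genes. In these comparisons the median log2 change of all genes tested lay between -0.02 and 0.01, and that of the 8 genes reached 0.21 at 3 h against sham and -0.35 from 3 to 6 h.

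Atf3 (ENSMUSG00000026628, chr1:191170296-191218039 on the minus strand of GRCm38) was low in sham hearts and high from 0.5 to 3 h. The 3 sham libraries held 8.85, 8.08 and 8.47 CPM, and the 3 ischemia libraries held 48.8, 41.1 and 86.7 CPM. The groups did not overlap, and Atf3 rose by 2.80 ± 0.53 (log2 fold change ± SE, adjusted p = 0.0266) before any reperfusion. That call was lost without sham replicate 1, 2 or 3 (adjusted p = 0.151, 0.179 and 0.177) or ischemia replicate 3 (adjusted p = 0.208), and under limma-voom, where the change was 2.72 (adjusted p = 0.256). Over all alternatives the adjusted p ran from 5.96e-63, in the run with no filter, to 0.256. The next lowest was 0.00044, with only the groups compared. Ischemia replicate 3, which had the highest Atf3 level of its group, also differed from the other 2 in having 19.0% mitochondrial reads and 41.2% duplicates, against 29.7% to 30.2% and 52.7% to 54.5%. The part of that difference in its Atf3 level was not tested.

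With reperfusion the spread between libraries widened at first. At 0.5 h, Atf3 stood at 227, 55.4 and 404 CPM, replicate 2 lying among the ischemia libraries and the other 2 far above them. The rise over sham was 4.75 ± 0.56 (adjusted p = 1.60e-05), and it was 4.06 without replicate 3 at 0.5 h, a fold lower by more than 1.5 times that was still called (adjusted p = 7.62e-05). The step from ischemia to 0.5 h, 1.95 ± 0.48, was not called (adjusted p = 0.147). It was called without ischemia replicate 3 (2.35, adjusted p = 0.0165) and without 0.5 h replicate 2 (2.41, adjusted p = 0.00424), so 1 library of either group settles that call.

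The highest group means were those from 1 to 3 h. The step from 0.5 to 1 h, 1.03 ± 0.47, was not called (adjusted p = 0.743), and these 2 groups overlapped. The libraries held 564, 468 and 366 CPM at 1 h, 559, 454 and 714 CPM at 1.5 h, and 356, 591 and 443 CPM at 3 h. The groups of 1, 1.5 and 3 h overlapped one another, and neither step between them was called. Against sham the changes were 5.78 ± 0.58 at 1 h (adjusted p = 1.00e-06), 6.09 ± 0.59 at 1.5 h (adjusted p = 3.88e-07) and 5.77 ± 0.58 at 3 h (adjusted p = 1.58e-07).

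The level then fell in both of the last intervals. At 6 h, Atf3 stood at 61.2, 145 and 80.1 CPM, below every library of 1, 1.5 and 3 h, and the step from 3 h was -2.28 ± 0.49 (adjusted p = 0.00119). It remained above sham by 3.49 ± 0.54 (adjusted p = 1.19e-05). At 12 h it stood at 5.98, 16.3 and 27.2 CPM, a further step of -2.54 ± 0.50 (adjusted p = 0.00168). The 12 h libraries fell on both sides of sham, with replicate 1 below and replicates 2 and 3 above, and the difference from sham of 0.96 ± 0.52 was not called (adjusted p = 0.170). Without 12 h replicate 3 that difference was 0.40 (adjusted p = 0.627), and without replicate 1 it was 1.37 (adjusted p = 0.0520). In order of mean level the groups were 1.5 h, 1 h, 3 h, 0.5 h, 6 h, ischemia, 12 h and sham, and of these neighbours only ischemia and 12 h did not overlap.

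**Figure D2:**
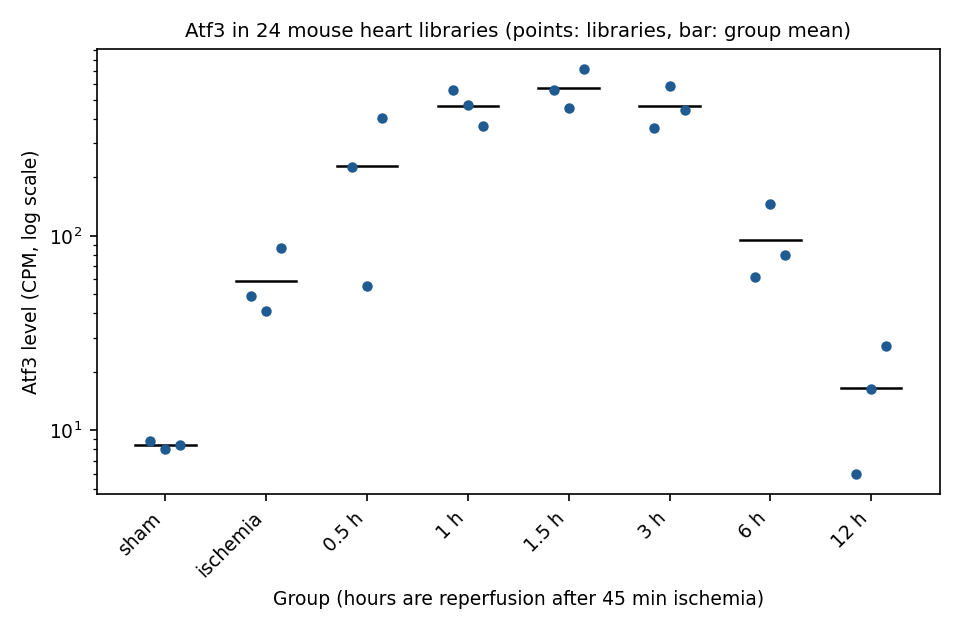
Atf3 level in CPM on a log axis (vertical) for every library (points) in the 8 groups (horizontal), with a bar at the group mean. The 3 sham libraries sit between 8.08 and 8.85 CPM, the 9 libraries of 1, 1.5 and 3 h between 356 and 714 CPM, and the 12 h libraries on both sides of sham.

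Jdp2 (ENSMUSG00000034271, chr12:85599027-85639878 on the plus strand), the closest relative of Atf3, rose from 1 to 3 h, by at most 1.13 on the log2 scale. Its libraries held 10.01, 6.23 and 9.03 CPM in sham, 7.30, 11.2 and 13.2 CPM after ischemia, and 12.4, 10.1 and 13.1 CPM at 0.5 h. They held 15.1, 16.6 and 12.0 CPM at 1 h, 17.1, 14.1 and 17.4 CPM at 1.5 h, and 17.03, 19.2 and 19.3 CPM at 3 h. From 0.5 h to 3 h every library was above every sham library, although neighbouring groups overlapped. Jdp2 was called higher by 0.79 ± 0.24 at 1 h (adjusted p = 0.0365), 0.94 ± 0.24 at 1.5 h (adjusted p = 0.0163) and 1.13 ± 0.24 at 3 h (adjusted p = 0.000829).

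At 6 h the Jdp2 libraries stood at 11.6, 15.2 and 6.22 CPM, all below the 3 h libraries, and at 12 h they stood at 11.3, 9.34 and 10.6 CPM. The step from 3 to 6 h was -0.74 ± 0.23 (adjusted p = 0.0198). Neither 6 h (0.39 ± 0.24, adjusted p = 0.194) nor 12 h (0.30 ± 0.24, adjusted p = 0.362) differed from sham past the threshold. The 1 h call was lost without sham replicate 1, 2 or 3 or 1 h replicate 1 or 2 (adjusted p = 0.0515, 0.168, 0.0736, 0.116 and 0.115), and the 1.5 h call without sham replicate 2 or 1.5 h replicate 1 or 3 (adjusted p = 0.107, 0.0575 and 0.0729). The step from 3 to 6 h was lost without 3 h replicate 2 or 3 or 6 h replicate 3 (adjusted p = 0.0629, 0.0554 and 0.138), and the 6 h group was called higher than sham without 6 h replicate 3 (0.68, adjusted p = 0.0153). The 3 h call held in every alternative run, with an adjusted p of at most 0.00944.

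Atf2 (ENSMUSG00000027104, chr2:73816509-73892639 on the minus strand), the kinase-activated member that pairs with JUN, was called lower at 1 time. It stood at 38.9, 35.0 and 38.4 CPM in sham and at 26.7, 27.2 and 28.4 CPM at 0.5 h, where all 3 libraries lay below sham and the change was -0.45 ± 0.14 (adjusted p = 0.0406). That single call was lost without any 1 of the 3 sham or 3 of the 0.5 h libraries and without 12 h replicate 2 (adjusted p = 0.0518 to 0.130). The 6 h and 12 h libraries also lay below all sham libraries without a call (-0.33 ± 0.14, adjusted p = 0.0577, and -0.20 ± 0.14, adjusted p = 0.284). At 6 h, Atf2 was called lower with only the groups compared (adjusted p = 0.00936) and without ischemia replicate 1 or 3, 1 h replicate 1 or 3 h replicate 1 (adjusted p = 0.0292 to 0.0495). At 3 h it was called with ischemia replicate 3 left out (adjusted p = 0.0466) and with 3 h replicate 1 left out (adjusted p = 0.0241). The group means of the other times ran from 29.8 ± 0.825 CPM (SD, n = 3) at 6 h to 33.3 ± 6.75 CPM after ischemia. Atf2 was not called across the 8 groups (adjusted p = 0.170), but was without ischemia replicate 3 (adjusted p = 0.0369), which held 25.7 CPM against 38.5 and 35.6 CPM in the other 2 of that group.

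Atf7 (ENSMUSG00000099083, chr15:102525946-102625464 on the minus strand), the near relative of Atf2, fell to its lowest level at 3 h. Sham libraries held 57.5, 64.4 and 60.5 CPM, and 3 h libraries held 37.6, 32.1 and 28.9 CPM. The 3 h values lay below those of every other group, and the change from sham was -0.89 ± 0.14 (adjusted p = 4.36e-05). At 1 h Atf7 stood at 38.7, 46.9 and 47.4 CPM, a change of -0.45 ± 0.14 (adjusted p = 0.0366) that was lost without sham replicate 1, 2 or 3 or 1 h replicate 1 (adjusted p = 0.0677, 0.123, 0.0858 and 0.175).

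The descent of Atf7 from 1.5 to 3 h was -0.50 ± 0.14 (adjusted p = 0.0269), and it was lost without 1.5 h replicate 1 or 2 or 3 h replicate 3 (adjusted p = 0.111, 0.0916 and 0.148). By 6 h the libraries held 48.7, 46.5 and 49.9 CPM, above all 3 h libraries, and the step was 0.56 ± 0.14 (adjusted p = 0.00458). At 0.5, 1.5 and 6 h the libraries also lay below every sham library, without a call (adjusted p = 0.0875, 0.0938 and 0.0535). All 3 differences were called when only the libraries of the groups compared were fitted (adjusted p = 0.00599, 0.0224 and 0.00816). With duplicates removed, those at 1.5 and 6 h were called (adjusted p = 0.0478 and 0.0437). Those at 0.5, 1.5 and 6 h were also called without ischemia replicate 3 (adjusted p = 0.0339, 0.0357 and 0.0193), and that at 6 h without replicate 1 of ischemia, of 1 h or of 3 h (adjusted p = 0.0460, 0.0442 and 0.0473). The 12 h level of 54.5 ± 7.07 CPM overlapped that of sham, 60.8 ± 3.47 CPM.

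Creb5 (ENSMUSG00000053007, chr6:53287270-53700376 on the plus strand), the third member of the ATF2 subfamily, gave a peak at 3 h. Sham libraries held 7.76, 4.72 and 7.99 CPM, 1.5 h libraries 6.27, 6.74 and 12.4 CPM, and 3 h libraries 14.3, 21.3 and 24.6 CPM. Every 3 h library was above every other library of the series. The rise was 1.55 ± 0.28 over sham (adjusted p = 0.000178) and 1.24 ± 0.28 over 1.5 h (adjusted p = 0.00649), the latter lost without 1.5 h replicate 1 or 2 or 3 h replicate 3 (adjusted p = 0.0502, 0.0511 and 0.0505).

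At 6 h Creb5 had come down to 5.85, 4.39 and 3.73 CPM, a step of -2.10 ± 0.29 (adjusted p = 1.16e-05) that held in every alternative run. At 12 h it stood at 2.42, 3.94 and 4.21 CPM, below all sham libraries, with a change of -0.95 ± 0.30 (adjusted p = 0.0174). This last call was lost without sham replicate 1 or 3 or 12 h replicate 1 (adjusted p = 0.0774, 0.0719 and 0.101). Neutrophil markers summed to 3.63 to 6.79 CPM in sham, 12.1 to 36.3 CPM at 3 h and 71.8 to 169 CPM at 6 h. Fibroblast markers summed to 1342 to 1423 CPM in sham, 967 to 1452 CPM at 3 h and 583 to 868 CPM at 6 h. From 3 to 6 h, when Creb5 fell, 5 of 8 of them were called lower and 1 higher, against 13.2% and 14.7% of all genes. The median change of these markers was -0.78. The part of either cell type in the Creb5 values was not tested. In bulk tissue, fewer cells of a type and less RNA per cell cannot be told apart.

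Creb1 (ENSMUSG00000025958, chr1:64532645-64604548 on the plus strand), the main cAMP-responsive activator, was lowest at 3 h, as Atf7 was. It stood at 26.8, 27.8 and 34.4 CPM in sham, 21.1, 18.7 and 20.2 CPM at 1 h, and 18.4, 12.9 and 14.7 CPM at 3 h. Every library of 0.5, 1, 1.5 and 3 h lay below every sham library. The changes were -0.57 ± 0.17 at 1 h (adjusted p = 0.0304) and -0.95 ± 0.17 at 3 h (adjusted p = 0.000147). Those at 0.5 h (-0.27 ± 0.16, adjusted p = 0.298) and 1.5 h (-0.47 ± 0.17, adjusted p = 0.0872) were not called. With only the groups compared, that at 1.5 h was called (adjusted p = 0.0422). The step from 1.5 to 3 h was -0.48 ± 0.17 (adjusted p = 0.0784). It was called without ischemia replicate 1 or 3 h replicate 1 (adjusted p = 0.0475 and 0.0485). It was also called with no filter (adjusted p = 0.0385), a run that is not relied on.

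Between 3 and 6 h Creb1 returned to 23.99, 29.4 and 29.1 CPM, a step of 0.84 ± 0.17 (adjusted p = 0.000686) that left it overlapping sham. At 12 h it stood at 28.0 ± 4.50 CPM (SD, n = 3), close to the 29.7 ± 4.10 CPM of sham. The 1 h call was lost without sham replicate 2 or 3 or 1 h replicate 1 or 2 (adjusted p = 0.0552, 0.140, 0.0762 and 0.0741) and with duplicates removed (adjusted p = 0.0646). The call at 3 h held in every alternative run, with an adjusted p of at most 0.00173.

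Crem (ENSMUSG00000063889, chr18:3266048-3337748 on the minus strand), which codes for activators and, from an internal start, for the inducible repressor ICER, was not called in any comparison with sham. The counts are per gene, so these products are not separated. Its libraries held 14.5, 10.95 and 10.95 CPM in sham, 16.97, 11.97 and 15.7 CPM at 3 h, and 9.10, 9.08 and 9.52 CPM at 6 h. The 3 h libraries overlapped sham and lay above all 6 h libraries, and the step from 3 to 6 h was -0.69 ± 0.19 (adjusted p = 0.00878). All 6 h libraries lay below every sham library, without a call (-0.40 ± 0.19, adjusted p = 0.0944). With only the groups compared, that difference was called (adjusted p = 0.0477). The test across the 8 groups (adjusted p = 0.0310) was not passed without 3 h replicate 1 or 3, any of the 3 libraries of 6 h, or 12 h replicate 1 (adjusted p = 0.0505 to 0.0748). Crem shares 472 exon bases with Gm6225 on the other strand, which had 150 reads over all libraries against 4492 of Crem, and whether the counting used strand is not given in the sources used here. Atf7 and Atf2 share 1284 and 167 exon bases with Gm28047 and Gm27421 on the same strand, each at 0 reads. Creb5 shares 164 with Gm25818 on the same strand (2 reads), and Jdp2 165 with Gm47863 on the other strand. How reads in shared bases were counted is not given either.

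Atf1 (ENSMUSG00000023027, chr15:100227819-100261244 on the plus strand), the CREB1 partner that shares its kinases, was not called against sham up to 3 h and was higher afterwards. Sham libraries held 39.7, 37.2 and 40.4 CPM, and the 5 groups from ischemia to 3 h had means of 36.2 ± 2.85 to 42.5 ± 2.95 CPM. The 6 h libraries held 54.4, 67.8 and 64.0 CPM and the 12 h libraries 54.7, 59.0 and 52.3 CPM. Every library of these 2 late groups was above every other library of the series. The rises over sham were 0.67 ± 0.12 at 6 h (adjusted p = 0.000108) and 0.50 ± 0.12 at 12 h (adjusted p = 0.00295), and the step from 3 to 6 h was 0.55 ± 0.12 (adjusted p = 0.00182).

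All 3 calls of Atf1 held in every alternative run. In the same 2 groups the neutrophil markers summed to 71.8 to 169 and 65.0 to 71.0 CPM, and the 7 monocyte markers to 186 to 239 and 222 to 271 CPM against 80.4 to 85.9 CPM in sham. Ventricular muscle markers summed to 59759 to 66472 CPM at 6 h and 48183 to 57919 CPM at 12 h, and fibroblast markers to 583 to 868 CPM at 6 h and 788 to 1249 CPM at 12 h. Of the 8 fibroblast markers, 3 were called higher and 5 lower at 6 h, and 2 and 2 at 12 h. Of all genes, 24.6% and 22.9% were called higher and lower at 6 h, and 16.9% and 14.9% at 12 h. The counts at 12 h thus lay near the background. The part of these cell types in the Atf1 values was not tested.

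**Figure D3:**
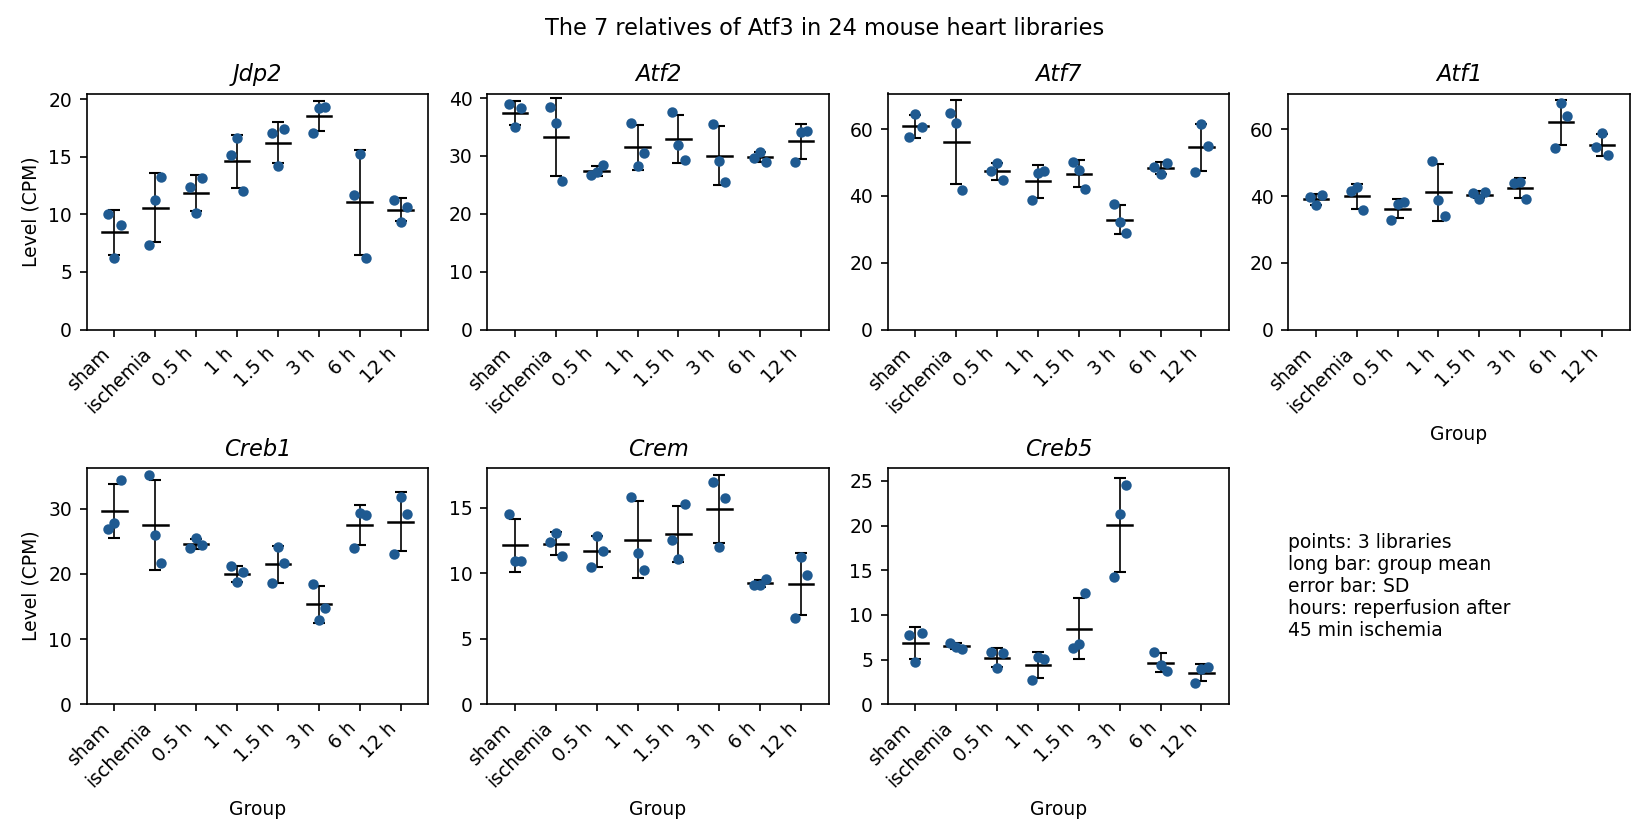
Level in CPM (vertical, from 0) of the 7 relatives of Atf3 in the 8 groups (horizontal), with a point for each library, a long bar at the mean and an error bar of 1 SD. Jdp2 and Creb5 reach their highest means at 3 h (18.5 and 20.0 CPM), Atf7 and Creb1 their lowest (32.9 and 15.3 CPM), and Atf1 its highest at 6 h (62.1 CPM).

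To compare the genes with one another, levels were divided by the gene length that the authors deposited. In sham hearts Atf1 had the highest level per kb, 12.8 ± 0.544 CPM per kb (SD, n = 3). Before that division Atf7 was the highest in sham, with 60.8 CPM against 39.1 CPM of Atf1. The order and the shares below therefore depend on the lengths used, 10988 bases for Atf7 and 3060 for Atf1. Per kb, Atf7 came second with 5.53 ± 0.316, then Atf2 with 4.57 ± 0.254, Jdp2 with 4.48 ± 1.04 and Atf3 with 3.93 ± 0.181 CPM per kb. Creb5, Creb1 and Crem stood at 2.25 ± 0.601, 2.16 ± 0.298 and 2.06 ± 0.348 CPM per kb, within their spread of one another. The Creb5 length in the files, 3038 bases, is far below the 25021 exon bases of GENCODE vM21, so its level per kb depends on which gene model is taken.

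Atf3 went from a minor to the main share of the 8 genes' summed level. It made up 10.4% ± 0.362 of that sum in sham, 43.4% ± 11.4 after ischemia, 69.4% ± 21.1 at 0.5 h, and 86.2% ± 1.33, 87.7% ± 1.84 and 83.7% ± 3.24 at 1, 1.5 and 3 h. The share was 51.4% ± 8.88 at 6 h and 16.2% ± 9.04 at 12 h, when Atf1 was again the largest with 40.8%. The 7 other genes summed to 33.8 ± 2.40 CPM per kb in sham and between 31.3 ± 1.21 (0.5 h) and 40.6 ± 0.501 (3 h) elsewhere, while Atf3 alone went from 3.93 to 267 CPM per kb at 1.5 h. Ranked by level per kb among the 15128 genes tested, Atf3 lay between places 6726 and 7089 in the sham libraries and between 124 and 182 at 1.5 h. At 12 h its places ran from 2905 to 8342.

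**Figure D4:**
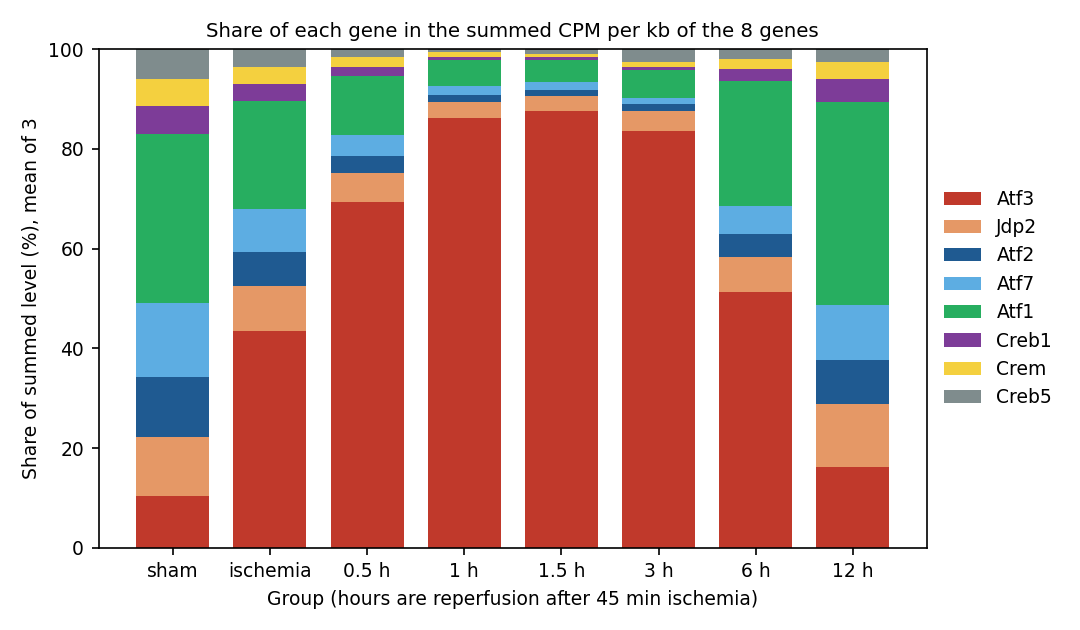
Mean share in percent (vertical) of each of the 8 genes in their summed CPM per kb, for each group (horizontal, 3 libraries each). The Atf3 share goes from 10.4% in sham to 87.7% at 1.5 h and is 16.2% at 12 h, while Atf1 is the largest in sham and at 12 h.

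The courses of the 8 genes were set side by side by the correlation of their 8 group means of log2 CPM, as a description over 8 points that share libraries and scaling. Atf3 and Jdp2 had a Pearson r of 0.90, and Atf7 and Creb1 one of 0.95. Jdp2 ran opposite to Creb1 (-0.95) and to Atf7 (-0.90). Crem and Creb5 had 0.80, and the highest positive value of Atf1 was 0.27, to Creb1.

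Among 7272 other genes that changed across the groups and averaged at least 5 CPM, the 5 most like Atf3 were Errfi1, a feedback inhibitor of the EGF receptor (r = 0.99), Nts, the precursor of neurotensin (0.98), Slc25a25, a mitochondrial carrier of ATP-Mg and phosphate (0.98), Gstm2, a glutathione transferase (0.98), and Dusp6, a phosphatase of ERK (0.98). Errfi1 went from 65.9 CPM in sham to 231 CPM at 1 h and Slc25a25 from 14.5 to 46.4 CPM at 1.5 h, both smaller rises than that of Atf3. Jdp2 was most like Cdr2, Eva1a and Psd (0.98, 0.96 and 0.96), and Atf7 most like Elp2, Rhobtb3 and Zfp942 (0.99 each). Atf1 was most like Esd, Nfrkb and Snrpa1 (0.99 each), and Creb1 most like Cdc23, Zfp955a and Mettl14 (0.97, 0.97 and 0.96). For Crem they were F3, the tissue factor of blood clotting, Herpud1, a gene of the endoplasmic reticulum stress response, and Cep63 (0.99, 0.98 and 0.98), and for Creb5 Spata6, Hivep2 and Zfp516 (0.99, 0.98 and 0.97).

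The other genes of the pathway were read by list, with medians to be set beside those of all genes tested, which lay between -0.02 and 0.01. The AP-1 and C/EBP genes, whose proteins can pair with ATF3, JDP2 or ATF2, were called higher in 3 of 15 after ischemia, 11, 12, 10, 14 and 15 of 15 at 0.5, 1, 1.5, 3 and 6 h, and 8 of 15 at 12 h, and lower in 0 of 15 at every time. Of all genes tested, 0.0925%, 7.43%, 7.46%, 4.55%, 18.4%, 24.6% and 16.9% were called higher in these 7 comparisons. The list's median change was 2.09 at 1.5 h and 0.92 at 12 h. At 1.5 h, when Atf3 was highest, the largest rises in this list were those of the FOS and JUN family members Fosb (from 1.03 ± 0.254 to 848 ± 257 CPM, 9.70 ± 0.86, adjusted p = 1.93e-07), Fos (6.17 ± 0.51, adjusted p = 1.63e-07) and Junb (4.62 ± 0.43, adjusted p = 2.79e-07). At 12 h they were those of Junb (2.45 ± 0.40, adjusted p = 6.10e-05), Fosl1 (1.65 ± 0.29, adjusted p = 0.000111) and Cebpd (1.41 ± 0.29, adjusted p = 0.000638).

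Of further ATF- and CREB-named genes, 12 of 14 listed could be tested. Of these, 0 were called after ischemia, 2 were higher and 0 lower at 0.5 h, 2 and 2 at 1 h, 1 and 2 at 1.5 h, 3 and 1 at 3 h, 6 and 2 at 6 h, and 5 and 0 at 12 h. The shares of all genes called higher and lower were 7.43% and 4.48% at 0.5 h, 7.46% and 3.41% at 1 h, and 4.55% and 2.99% at 1.5 h. Later they were 18.4% and 16.9% at 3 h, 24.6% and 22.9% at 6 h, and 16.9% and 14.9% at 12 h. The list's median was -0.07 at 1.5 h, 0.22 at 3 h, 0.55 at 6 h and 0.40 at 12 h. Atf4, the translation-controlled factor of the integrated stress response, went from 36.8 ± 6.70 CPM in sham to 99.5 ± 13.5 CPM at 1.5 h (1.44 ± 0.20, adjusted p = 3.05e-05) and 106 ± 16.3 CPM at 12 h (1.53 ± 0.20, adjusted p = 3.20e-06). Crebzf (-0.75 ± 0.16, adjusted p = 0.00402) and Crebl2 (-0.51 ± 0.15, adjusted p = 0.0438) fell at 1.5 h. The membrane-bound factors Creb3l1 (0.74 ± 0.25, adjusted p = 0.0249) and Atf6b (0.58 ± 0.14, adjusted p = 0.00301) rose at 12 h.

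Of 19 kinases and coactivators of CREB, 0 were called after ischemia, and 2 higher and 3 lower, 1 and 1, 4 and 0, 7 and 3, 6 and 2, and 2 and 1 were called at 0.5, 1, 1.5, 3, 6 and 12 h. Of all genes, 7.43%, 7.46%, 4.55%, 18.4%, 24.6% and 16.9% were called higher at these times from 0.5 to 12 h. The shares called lower were 4.48%, 3.41%, 2.99%, 16.9%, 22.9% and 14.9%. The list's medians at 6 and 12 h were 0.25 and 0.10, and its counts at 12 h lay near the background. At 1.5 h, Sik1, a kinase that restrains CREB coactivators and is itself a CREB target, rose by 1.67 ± 0.37 (adjusted p = 0.00558), the coactivator Crtc2 by 0.49 ± 0.15 (adjusted p = 0.0391) and Mapkapk2, a kinase downstream of p38, by 0.44 ± 0.13 (adjusted p = 0.0366). At 12 h, Rps6ka5 fell by 1.13 ± 0.18 (adjusted p = 5.48e-05), whereas Rps6ka4, its close relative and like it a kinase of CREB, rose by 0.68 ± 0.13 (adjusted p = 0.000416), and Crtc2 rose by 0.57 ± 0.14 (adjusted p = 0.00401).

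Of 12 tested of 13 listed kinases of the JNK and p38 pathways, 0 were called after ischemia, 5 were lower at 0.5 h with 0 higher, 1 and 1 were higher and lower at 1 h, 1 and 0 at 1.5 h, 2 and 1 at 3 h, 6 and 3 at 6 h, and 3 and 5 at 12 h. Of all genes, 7.43% were called higher and 4.48% lower at 0.5 h, 7.46% and 3.41% at 1 h, and 4.55% and 2.99% at 1.5 h. The shares were 18.4% and 16.9% at 3 h, 24.6% and 22.9% at 6 h, and 16.9% and 14.9% at 12 h. The list's medians at 0.5, 6 and 12 h were -0.04, 0.25 and -0.14. Map2k3, which activates p38, rose by 0.57 ± 0.15 at 1.5 h (adjusted p = 0.0166) and 1.34 ± 0.15 at 12 h (adjusted p = 2.88e-07). Map2k6, the other main p38 activator, fell by 1.65 ± 0.40 at 12 h (adjusted p = 0.00269), and Mapk11, a p38 isoform, rose by 1.08 ± 0.20 (adjusted p = 0.000227).

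Textbook targets of CREB, several of which are also early genes that other factors induce, were called higher in 3, 9, 12, 12, 14, 6 and 3 of 17 tested (of 20 listed) at ischemia, 0.5, 1, 1.5, 3, 6 and 12 h. They were lower in 0 until 3 h and in 4 of 17 at both 6 and 12 h. The shares of all genes called higher in these comparisons were 0.0925%, 7.43%, 7.46%, 4.55%, 18.4%, 24.6% and 16.9%, and those called lower at 6 and 12 h were 22.9% and 14.9%, so the late counts lay near the background. The list's median was 1.60 at 1.5 h, 0.43 at 6 h and -0.18 at 12 h. Fos, Junb and Egr1, a zinc finger early gene (4.17 ± 0.56, adjusted p = 2.08e-05), had the largest rises at 1.5 h. At 12 h, Ppargc1a, the coactivator of mitochondrial gene expression, fell by 1.17 ± 0.25 (adjusted p = 0.000752), and Rgs2, an inhibitor of G protein signalling, by 1.14 ± 0.32 (adjusted p = 0.00884). From 3 to 6 h, 13 of 17 targets fell and 1 rose, with a median of -1.34, against 13.2% of all genes called lower and 14.7% called higher.

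Genes of the integrated stress response, the pathway through which ATF4 induces Atf3 in several cell types, were called higher in 0, 4, 4, 2, 6, 8 and 4 of 15 and lower in 0, 0, 0, 0, 2, 4 and 2 at the same 7 groups. Of all genes, 7.43% and 4.48% were called higher and lower at 0.5 h, 7.46% and 3.41% at 1 h, and 4.55% and 2.99% at 1.5 h. The shares were 18.4% and 16.9% at 3 h, 24.6% and 22.9% at 6 h, and 16.9% and 14.9% at 12 h, the last near the counts of the list. The list's medians at 3, 6 and 12 h were 0.38, 0.62 and 0.43. Ppp1r15a, the phosphatase subunit that ends the response, rose by 2.50 ± 0.31 at 1.5 h (adjusted p = 8.64e-06). At 12 h, Asns, the asparagine synthetase, rose by 1.07 ± 0.30 (adjusted p = 0.00851) and Vldlr, a lipoprotein receptor, fell by 1.44 ± 0.14 (adjusted p = 6.29e-08).

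Fancd2, the Fanconi anaemia protein that the series title links to ATF3, was near the floor of detection and was not called in any pairwise comparison. It stood at 0.549 ± 0.148 CPM in sham, 1.41 ± 0.120 CPM after ischemia (1.37 ± 0.71, adjusted p = 0.628), 0.957 ± 0.850 CPM at 1.5 h and 0.423 ± 0.269 CPM at 12 h. Slc7a11, the cystine transporter whose repression by ATF3 is described in other cells, was at the floor in sham (0.211 ± 0.0648 CPM). At 1 and 1.5 h Slc7a11 stood at 0.356 ± 0.163 and 0.379 ± 0.142 CPM, without a call (adjusted p = 0.542 and 0.549). It rose by 2.88 ± 0.61 at 3 h (adjusted p = 0.000839), 4.48 ± 0.57 at 6 h (adjusted p = 9.74e-07) and 3.86 ± 0.58 at 12 h (adjusted p = 2.08e-05). Its highest group mean was 4.86 ± 2.82 CPM at 6 h. Neutrophil and monocyte markers were also higher at 6 and 12 h, and the part of these cells in the Slc7a11 values was not tested. Gpx4, the lipid peroxide reductase, stood at 303 ± 15.9 CPM in sham and was called at 3 h alone among the comparisons with sham (0.35 ± 0.13, adjusted p = 0.0423). Its changes at 1 h (0.37 ± 0.13, adjusted p = 0.0728) and 1.5 h (0.35 ± 0.13, adjusted p = 0.109) were of like size without a call. The call therefore does not set 3 h apart from them. The spread at 1 h was wide (391 ± 93.0 CPM).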

How the data were processed

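Messenger RNA of 24 mouse heart libraries was measured by short-read sequencing, 3 in each of 8 groups taken from the treatment label. Per the labels' protocols, RNA was extracted with Trizol from flash-frozen tissue, and an Illumina TruSeq kit was used. Per the file headers, the authors deposited whole-number counts for every gene, with and without duplicates and multiply mapped reads, and a gene length in bases. Per the submitters' processing notes, the genome build is mm10. The sources used here do not name the aligner, counter, strand setting or annotation. The counts used were those of uniquely mapped reads, duplicates included. Symbols were found for 45143 identifiers (98.0%), and positions came from GENCODE vM21 (GRCm38). Of all pairs of libraries, 0 were identical.

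All 24 libraries entered 1 fit of edgeR 4.0.16 (R 4.3.3; TMM factors 0.858 to 1.16; filterByExpr with a minimum count of 10 and a minimum total of 15; quasi-likelihood test; 16 residual degrees of freedom; no covariate), and p-values were adjusted by Benjamini-Hochberg over the genes of a comparison. Calls needed an adjusted p under 0.05. Adjusted p-values come from edgeR where no other tool is given. The procedure was tested on simulated data. CPM are counts relative to the TMM-scaled library size, and an SE is the log2 fold change divided by the square root of its F statistic. The 8 genes and the lists were chosen with earlier results of these data known. All 8 genes were named, with up to 3 called genes per list at 1.5 and 12 h, the 5 (Atf3) or 3 genes of most similar course, and Fancd2 and Slc7a11. Gpx4 and the targets' step from 3 to 6 h were added after their values were seen. Alternatives were RLE size factors, library totals, no filter, duplicates removed, multiply mapped reads included, a replicate block, limma-voom (3.58.1), DESeq2 (1.42.0), only the groups compared, mitochondrial genes left out (added after seeing the data) and leaving out each library.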

Additional observations from a re-analysis of the deposited data

How the results depend on the processing

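Of 36 single-gene results, 24 kept their call and direction in every alternative run (up to 34 each), and 0 reversed. For Atf3 after ischemia against sham, limma-voom gave 2.72, no longer called, and leaving out single libraries gave 2.41 to 3.00. For Atf3 at 12 h against sham, testing all genes without a filter gave 0.99, now called (adjusted p = 2.25e-08), against 0.96 with the filter. The unfiltered run also gave Atf3 an adjusted p of 5.39e-164 at 0.5 h, against 1.60e-05 with the filter. Values that small are not plausible for 3 libraries a group, so calls added by that run are not relied on. Besides those named, it added Atf3 from ischemia to 0.5 h (adjusted p = 5.7e-36) and from 0.5 to 1 h (1.62e-09). It also added Creb5 from 1 to 1.5 h (0.00268). With scaling by library totals alone, 6 calls were lost: Atf2 at 0.5 h (adjusted p = 0.136), Atf7 at 1 h (0.103), Creb1 at 1 h (0.0614), Creb5 at 12 h (0.0630), Atf7 from 1.5 to 3 h (0.0599) and Crem across the groups (0.156). That scaling moved the median of all genes to 0.12 at 0.5 h and 0.23 at 12 h against sham and 0.15 from 6 to 12 h. It also moved the share of calls that were higher from 62.4% to 87.6%, 53.1% to 76.8% and 49.3% to 80.7% there. At 1 h that share went from 68.6% to 81.7%. For 1 to 1.5 h it was 8 of 10 calls (80%) and then 2 of 2 (100%), too few to read as a shift. With only the groups compared, Atf7 from 1.5 to 3 h (0.0508) and Jdp2 from 3 to 6 h (0.0706) were lost. The cause of these losses was not tested.

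The 18 calls of the 8 genes against sham were 12 to 24 over the alternatives, the lowest without sham replicate 2 or 3 and the highest with only the groups compared. The 10 calls between neighbouring times were 7 to 14, and the 7 genes called across the groups 6 to 8. With a replicate block these were 18, 10 and 7. Replicate numbers are not said to mark a shared animal or day, and deviations of same-numbered libraries correlated at -0.18 to 0.20, with 6 of 24 libraries closest to one of their own number. Over all genes the counts of calls moved by more than 1.5 times in 10 comparisons: 14 (3 to 289) for ischemia, 1802 (603 to 3937), 1645 (537 to 2038) and 1141 (503 to 2062) for 0.5, 1 and 1.5 h against sham, 5 (0 to 1156), 0 (0 to 159), 10 (0 to 357), 1290 (525 to 1753) and 1994 (785 to 2331) for the steps to 0.5, 1, 1.5, 3 and 12 h, and 4223 (2765 to 4583) for the step to 6 h. The highest counts of 289, 159 and 357 came from the run with no filter. Depth was lowest for Creb5, with 37 to 378 reads per library.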
